A study of Rattus norvegicus with 9 samples.

Results

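Endothelial cells of the rat renal artery, which form the inner lining of the vessel that feeds the kidney, were grown in culture and compared between a Model and a Normal group. The comparison takes 6 of the 9 RNA libraries of the study, 3 per group, chosen by their labels, and covers 12880 of the 32883 genes and 8342 of the 16814 long non-coding RNA (lncRNA) transcripts in the deposited tables. A gene or lncRNA was tested when it had 10 or more counts in at least 3 of the 6 libraries. All groups were grown in DMEM with 10% fetal bovine serum and antibiotics and were used between passage 2 and passage 8. Normal cells carry no further treatment in the labels. The label of the Model group names no agent, dose or time. The study's title speaks of dysfunction induced by Ang II (angiotensin II), so the comparison is read here as addressing what that peptide changed. The remaining 3 libraries come from cells given calycosin and tanshinone IIA, and their values are quoted beside some results. They also enter a fit of all 9 libraries used as an alternative. Nothing in the labels tells whether replicates are separate cultures or animals. The p-values therefore reflect library-to-library spread only, and that spread may be technical.

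Angiotensin II is the effector peptide of the renin-angiotensin system. Endothelial cells sense it mainly through the type 1 angiotensin receptor, whose signalling runs through calcium and NADPH oxidases and is known to lower nitric oxide availability and to raise adhesion molecules and chemokines. Long non-coding RNAs are transcripts with no known protein product. Some regulate transcription or act as scaffolds for proteins, and most in the rat have no assigned function. The genes are known here by Ensembl identifiers only, with no symbols, so the genes of these pathways and the markers of endothelial or other cell types could not be scored, and the cell type named in the labels was not checked against its markers.

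In units of 1e6 counts, the 6 gene libraries held 12.3 to 17.2 and the 6 lncRNA libraries 1.12 to 1.45. The Normal libraries had gene totals of 13.5, 13.6 and 12.3 and the Model libraries 13.2, 15.9 and 17.2. The typical variation between replicates (edgeR's common biological coefficient of variation) was 8.98% for genes and 31.9% for lncRNAs, so a lncRNA had to differ more than a gene to pass the same test. Normal 1 and Model 1 stand apart from the other libraries of their group in a set of 31 genes, and the counts of calls, of 2-fold changes and of p below 0.05 for genes are given with and without them.

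No gene passed the test between Model and Normal in the 6 libraries. With edgeR's quasi-likelihood test, 0 of 12880 genes (0%) reached a Benjamini-Hochberg adjusted p below 0.05, the threshold used throughout, and the smallest adjusted p was 0.9998. DESeq2 also called 0. Before adjustment, 442 genes had p below 0.05 in edgeR (234 higher and 208 lower in Model) and 250 in DESeq2. Leaving out 1 library moved the edgeR number from 227 (without Normal 1) to 926 (without Normal 3), with 707 without Model 2, and it was 333 without Normal 1 and Model 1. The number expected if no gene differed, 644, lies within that range. Model libraries were about as far from Normal libraries as replicates were from each other. The median absolute log2 difference of a gene between 2 libraries averaged 0.142 over the 3 pairs within Normal, 0.131 over the 3 pairs within Model and 0.131 over the 9 pairs between the groups. The closest of all pairs crossed the groups, Normal 3 with Model 2 at 0.0964. The farthest pair also crossed them, Normal 2 with Model 2 at 0.194.

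**Figure D1:**
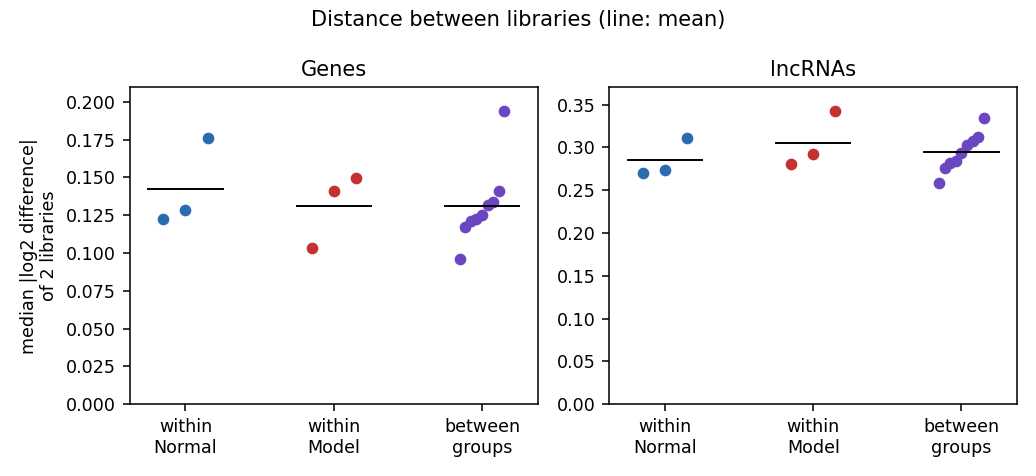
Each point is 1 pair of libraries, placed by the median absolute log2 difference of its genes (left) or lncRNAs (right) on the y axis, for pairs within Normal, within Model and between the groups on the x axis, with a line at the mean. Pairs between the groups overlap pairs within a group in both panels, with means of 0.131 for genes and 0.295 for lncRNAs.

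How large a difference could have been missed is given by the 95% intervals of the fold changes. For 12127 of the 12880 genes (94.2%) the interval lay wholly inside a 2-fold change in either direction, and for 10531 (81.8%) inside a 1.5-fold change. Precision followed the level, given as counts per 1e6 counts of the library (CPM). Of 2444 genes at 100 CPM or more, 99.8% had an interval inside 2-fold and 98.9% inside 1.5-fold. Of 6941 genes at 10 to 100 CPM the shares were 99.6% and 97.7%. At 1 to 10 CPM, 87.1% of 2983 genes lay inside 2-fold and 44.7% inside 1.5-fold, and of 512 genes below 1 CPM only 35.0% lay inside 2-fold. No gene had an interval wholly outside a 2-fold change. Without Normal 1 and Model 1, 11640 genes had an interval inside 2-fold. These intervals are not adjusted for the number of genes.

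Among the genes with the smallest p, some differed little and others had few counts. ENSRNOG00000004281 had 124.3, 121.2 and 113.6 CPM in the Normal libraries and 158.6, 143.2 and 152.6 CPM in the Model libraries. Its groups did not overlap, and its log2 fold change was 0.34 ± 0.07 (SE, n = 3 per group), with a 95% interval of 0.19 to 0.49 (edgeR adjusted p = 0.9998). ENSRNOG00000024312 read 5.61, 7.58 and 5.88 CPM in Normal and 8.60, 10.6 and 11.7 CPM in Model, again with no overlap (log2 fold change 0.70 ± 0.16, interval 0.34 to 1.06, edgeR adjusted p = 0.9998). Among genes lower in Model, ENSRNOG00000030478 read 71.3, 96.9 and 75.4 CPM in Normal and 55.5, 59.4 and 62.5 CPM in Model (log2 fold change -0.46 ± 0.11, interval -0.70 to -0.21, edgeR adjusted p = 0.9998). ENSRNOG00000040215 was a gene of few counts, 50, 28 and 33 in Normal and 18, 12 and 12 in Model (log2 fold change -1.61 ± 0.33, interval -2.32 to -0.89, edgeR adjusted p = 0.9998). Groups without overlap were common, at 1197 of all tested genes (9.29%), so these 4 patterns do not stand out by it. Fits that left out 1 library called 2 genes when Normal 1, Normal 3 or Model 2 was the library removed, 1 when it was Model 3 and none when it was Normal 2 or Model 1. These 7 calls were 7 different genes, 2 higher and 5 lower in Model.

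**Figure D2:**
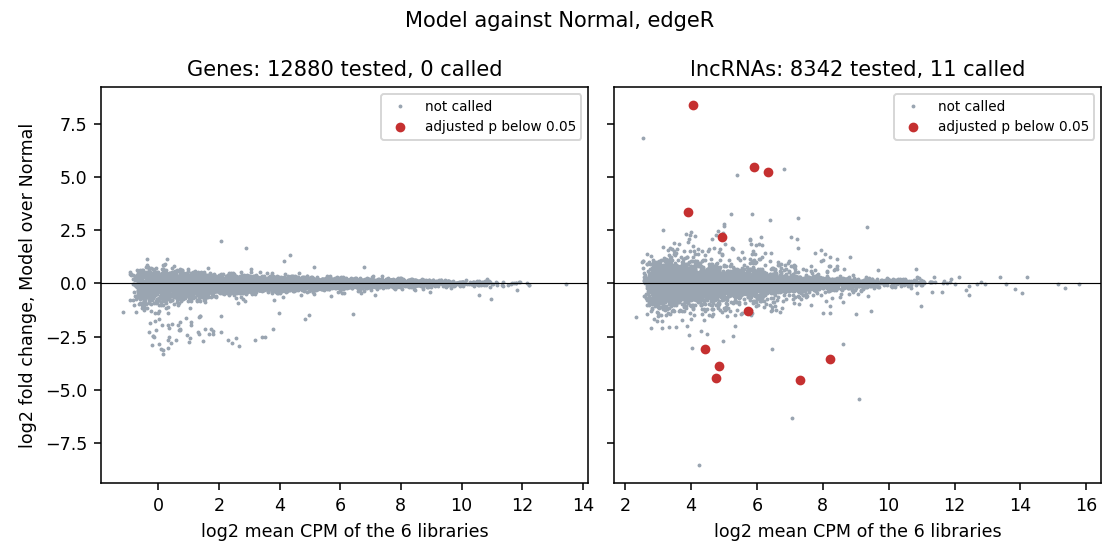
Each point is a gene (left) or a lncRNA (right), with the log2 mean CPM of the 6 libraries on the x axis and the log2 fold change of Model over Normal on the y axis. Red points have an edgeR adjusted p below 0.05: 0 of 12880 genes and 11 of 8342 lncRNAs, and a group of genes of low level lies below the rest on the left.

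The plot of fold change against level shows an uneven split among genes of low level. A fitted fold of at least 2 was found for 84 genes (0.652%), of which 78 were lower in Model and 6 higher, and a fold of at least 4 for 39 genes lower and 0 higher. The 84 genes had a median level of 1.43 CPM, against 28.6 CPM over all tested genes. With a minimum of 50 counts in place of 10, the split was 15 lower and 3 higher. Leaving out 1 library gave 72 to 108 lower and 5 to 15 higher, with 12 higher without Normal 1, 15 without Normal 2 and 13 without Normal 3. Without Normal 1 and Model 1 together it was 102 lower and 18 higher. None of these genes passed the test. A set of 31 genes, picked out after the values were seen, had 3 counts or fewer in both Model 2 and Model 3 and 10 or more in every Normal library. All 31 were fitted at least 2-fold lower in Model, with a median log2 fold change of -2.52 and a range from -3.31 to -1.90. This direction and size follow largely from the rule that picked the set. Without them, 47 genes were at least 2-fold lower. Removing the set could change only that side of the split, since all its genes were fitted lower.

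The 31 genes did not follow the labels. Their counts summed to 3960 in Normal 1, 1267 in Normal 2, 893 in Normal 3 and 1145 in Model 1, but only to 14 in Model 2 and 23 in Model 3. Model 1, which the choice of genes did not use, lay between Normal 3 and Normal 2 in this sum. Scaled to depth, the sums were 294.4, 93.6 and 73.0 CPM for the Normal libraries against 86.5, 0.884 and 1.35 CPM for the Model libraries, so the groups overlapped. The 3 libraries of cells given calycosin and tanshinone IIA, also outside the choice, summed to 1.75, 2.74 and 1.83 CPM. All 31 genes were highest in Normal 1. They kept similar proportions to each other: relative to its own level in Normal 1, a gene had a median of 32.6% in Normal 2 (quartiles 29.2% and 36.7%), 26.2% in Normal 3 (21.4% and 32.0%) and 28.6% in Model 1 (24.5% and 38.0%). In Model 1, 29 of the 31 had 10 or more counts, while in Model 2 none did and 21 were at 0, and in Model 3 none did and 19 were at 0. No other pair of libraries within a group behaved this way. The same rule applied to the other 5 pairs (10 or more counts in each library of the opposite group) gave 1 gene low in Normal 1 and Normal 2 and 0 genes for each of the other 4 pairs. Without symbols the 31 genes could not be set against markers of any cell type. In bulk RNA, fewer cells of a type and less RNA per cell cannot be told apart. None of the 7 genes called when 1 library was left out belongs to the set.

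The count of called genes rose once both libraries that stand apart were removed. Without Normal 1 and Model 1, a setting chosen after the values were seen, which leaves 2 libraries per group, edgeR called 35 genes, 1 higher and 34 lower in Model. Of the 35, 27 belong to the set of 31. The libraries kept are those in which the set is high in Normal and near 0 counts in Model, so these 27 calls are not independent of how the libraries and genes were picked. The other 8 calls lie outside the set, and with all 6 libraries none of them passed the test.

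**Figure D3:**
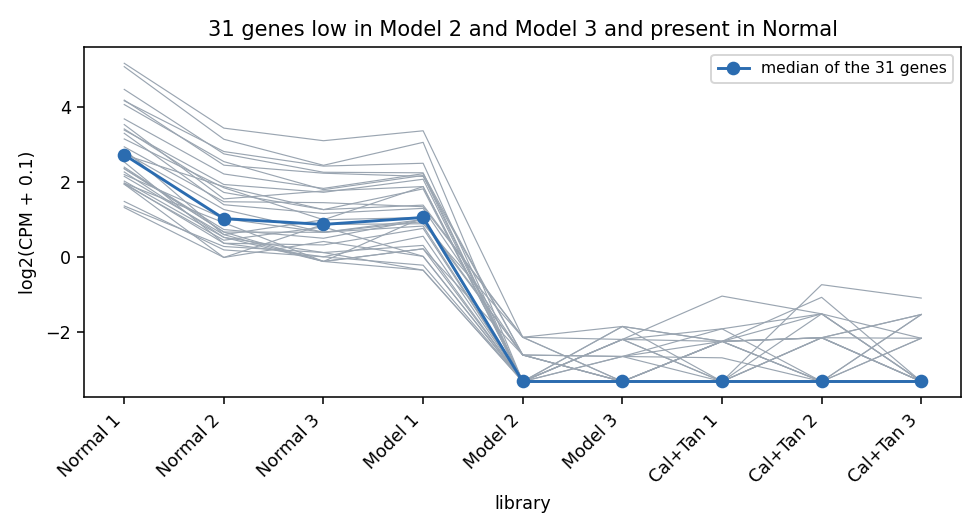
Each grey line is 1 of the 31 genes, with the 9 libraries on the x axis (Cal+Tan: calycosin and tanshinone IIA) and log2(CPM + 0.1) on the y axis, and the blue points are their median. Levels are highest in Normal 1, similar to each other in Normal 2, Normal 3 and Model 1, and near 0 counts in Model 2, Model 3 and the 3 Cal+Tan libraries. The lines join values of 1 gene and the libraries have no order.

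Among lncRNAs, 11 of 8342 (0.132%) were called, 5 higher (0.0599%) and 6 lower (0.0719%) in Model. DESeq2 called 16, which included all 11. The differences were large: 10 of the 11 changed more than 4-fold, and the other, NONRATT020373.2, changed 2.49-fold. A fitted fold of at least 2 was found for 3.12% of all tested lncRNAs. Before adjustment, 304 lncRNAs had an edgeR p below 0.05. This number was 149 in DESeq2, 516 without Model 2 and 258 without Model 3, and 417.1 is the number expected with no difference. The mean distance between libraries was 0.295 for lncRNAs over the 9 pairs between groups, 0.285 over the pairs within Normal and 0.306 over those within Model. For 5230 lncRNAs (62.7%) the 95% interval lay inside a 2-fold change, and for 1604 of 100 CPM or more the share was 90.1%. All 11 had Model libraries that did not overlap the Normal ones, as had 849 of all tested lncRNAs (10.2%). The count of calls depended on single libraries: removing Normal 2 gave 19, removing Model 1 gave 21 and removing Model 2 gave 17. It was 6 in a fit of all 9 libraries, 5 of them among the 11, and 21 without Normal 1 and Model 1 together, 6 of them among the 11.

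**Figure D4:**
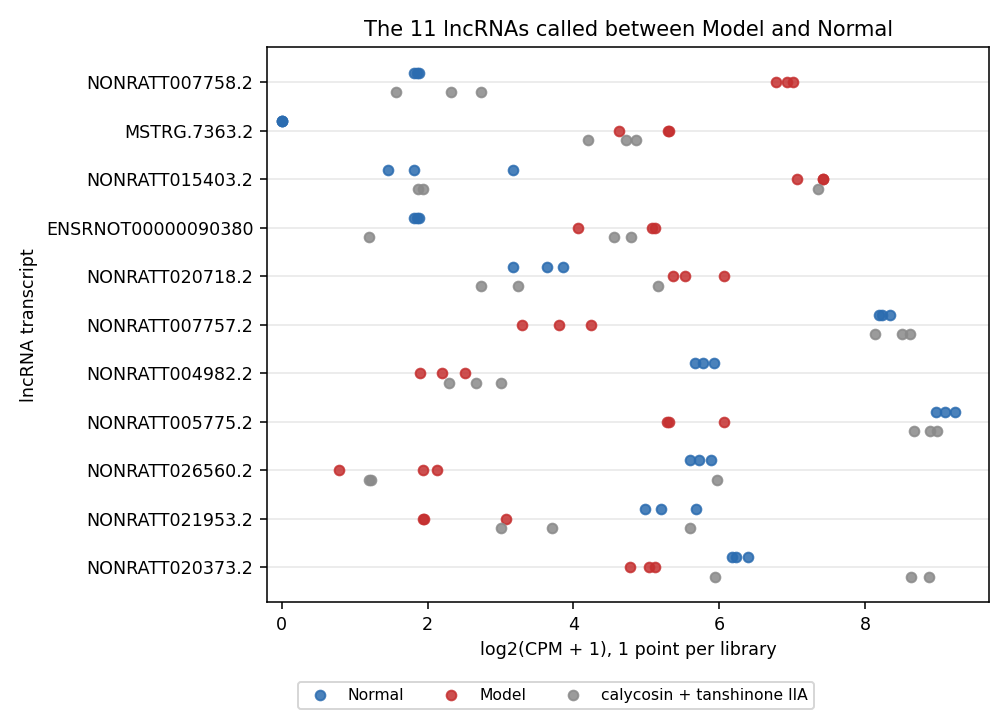
Each point is 1 library, with log2(CPM + 1) on the x axis and the 11 called lncRNAs on the y axis, in blue for Normal, red for Model and grey for calycosin and tanshinone IIA. Red and blue points do not overlap for any of the 11, and for 6 of them the grey points spread at least 4-fold. Red and blue points use scaling factors over the 6 libraries and grey points factors over all 9.

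The smallest p-values belonged to a pair of transcripts with consecutive numbers in the NONCODE catalogue, which changed in opposite directions. NONRATT007758.2 had 3 counts in each Normal library and 129, 160 and 178 counts in the Model libraries. In CPM it rose from 2.61 ± 0.0797 to 119.0 ± 9.68 (SD, n = 3), or by 5.46 ± 0.23 (SE) on the log2 scale, with an edgeR adjusted p of 6.79e-06. NONRATT007757.2 had 358, 367 and 328 counts in Normal and 19, 13 and 18 in Model. Its mean level fell, in CPM, from 305.0 ± 15.4 to 13.2 ± 4.52 (log2 fold change -4.54 ± 0.24, edgeR adjusted p = 2.47e-05). The groups of both transcripts lay far apart, and the widest range within a group was 2.00-fold, for NONRATT007757.2 in Model.

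Per length, the sum of the pair hardly differed. In the deposited FPKM values, which divide fragments by transcript length and depth, NONRATT007757.2 and NONRATT007758.2 together had 13.7, 14.1 and 13.9 in the Normal libraries and 13.8, 13.8 and 14.4 in the Model libraries. The means were 13.9 ± 0.172 and 14.0 ± 0.361 FPKM (SD, n = 3), a ratio of 1.01, and the groups overlapped. NONRATT007757.2 held 13.6 ± 0.174 of this in Normal, and NONRATT007758.2 held 13.4 ± 0.418 in Model. In counts the pair summed to 307.6 ± 15.4 CPM for Normal against 132.2 ± 12.9 CPM for Model, because each count of NONRATT007757.2 is divided by a length 2.55 times that of NONRATT007758.2. The sums were looked at after the values of both transcripts were seen and were not tested. Whether the 2 transcripts overlap in the genome was not analysed here, and the way reads were divided between overlapping transcripts is not given in the sources used here. Both levels are uncertain to that extent. In the cells given calycosin and tanshinone IIA, the pair read 17.0, 17.0 and 13.5 FPKM, nearly all of it NONRATT007757.2.

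**Figure D5:**
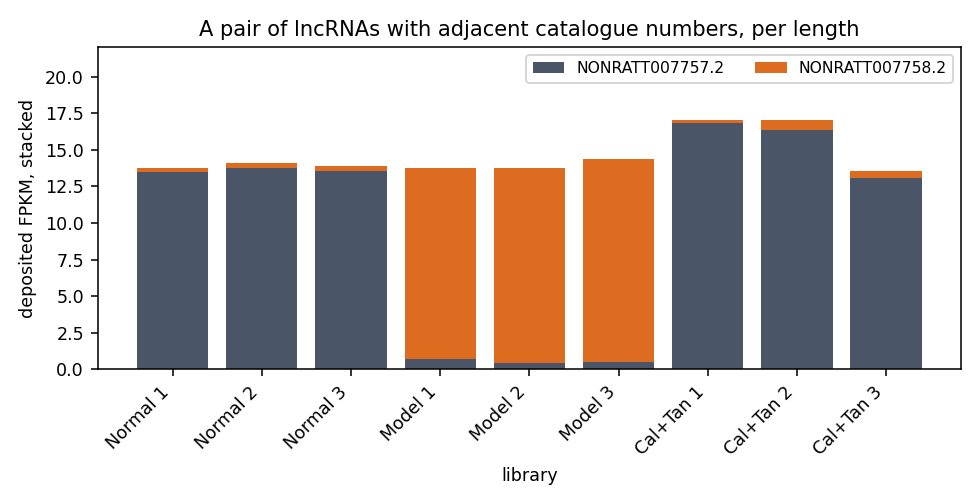
Bars stack the deposited FPKM of NONRATT007757.2 (grey) and NONRATT007758.2 (orange) for each of the 9 libraries on the x axis (Cal+Tan: calycosin and tanshinone IIA). The height of the 6 Normal and Model bars lies between 13.7 and 14.4 FPKM, while the transcript that fills them differs between the groups.

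A further 2 lncRNAs fell in Model and, like the pair, were called under every alternative. NONRATT005775.2 was the most abundant of the 11 by count, with 596, 687 and 612 counts in Normal and 70, 56 and 54 in Model. Its mean level fell, in CPM, from 549.6 ± 51.4 to 47.5 ± 15.8 (log2 fold change -3.54 ± 0.23, edgeR adjusted p = 0.000713). NONRATT004982.2 had 64, 68 and 56 counts in Normal and 5, 4 and 5 in Model (log2 fold change -3.89 ± 0.28, edgeR adjusted p = 0.00036). Their neighbours in catalogue number were not called. NONRATT005774.2 had at most 5 counts in any of the 9 libraries and was not tested. NONRATT004983.2 read 6.72, 9.65 and 10.7 CPM in Normal and 12.2, 4.75 and 5.01 CPM in Model, with overlap between the groups (log2 fold change -0.35 ± 0.47, edgeR adjusted p = 0.9995).

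MSTRG.7363.2, a transcript of a locus that was assembled from reads and carries no catalogue number, was at 0 counts in all Normal libraries and had 41, 35 and 54 counts in Model. With 3 counts in each Normal library as the floor, it was at least 12.9-fold higher in Model (edgeR adjusted p = 0.00629). The adjusted p was 0.0823 in a fit without robust settings. The locus as a whole was not called. The 6 transcripts numbered MSTRG.7363 summed to 593.7, 666.2 and 744.9 CPM in Normal and 368.0, 508.5 and 454.9 CPM in Model, and tested as 1 feature the sum had a log2 fold change of -0.59 ± 0.14 (edgeR adjusted p = 0.542). Most of the sum was MSTRG.7363.5, which read 447.6, 524.9 and 529.2 CPM in Normal and 262.9, 324.1 and 242.9 CPM in Model (log2 fold change -0.86 ± 0.13), which was not called (edgeR adjusted p = 0.0715). Of the other transcripts of the locus, MSTRG.7363.1 and MSTRG.7363.3 switched between replicates within both groups, with 0 counts at the same replicate number in each. MSTRG.7363.1 had 0, 136 and 124 counts in Normal and 0, 202 and 156 in Model, and MSTRG.7363.3 had 117, 0 and 45 in Normal and 32, 0 and 42 in Model. With calycosin and tanshinone IIA, MSTRG.7363.1 had 0, 1 and 61 counts and MSTRG.7363.3 had 0, 30 and 14. For MSTRG.7363.3 the replicate at 0 counts was therefore another one there. MSTRG.7363.6 had 170, 1 and 1 counts with the compounds and at most 4 in Normal or Model.

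The remaining called lncRNAs were less uniform outside the 6 libraries. NONRATT015403.2 rose from 3, 2 and 9 counts to 182, 197 and 239 (log2 fold change 5.25 ± 0.46, edgeR adjusted p = 0.00998), and the adjusted p was 0.076 without Normal 1. In the libraries given calycosin and tanshinone IIA it had 251, 2 and 2 counts, so 1 library was at the Model level and 2 were at the Normal level. NONRATT026560.2 fell from 69, 54 and 58 counts to 3, 5 and 1 (log2 fold change -4.46 ± 0.38, edgeR adjusted p = 0.00102), and had 2, 44 and 1 counts with the compounds.

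ENSRNOT00000090380, an Ensembl transcript, had 3 counts in each Normal library and 35, 50 and 22 in Model (log2 fold change 3.34 ± 0.44, edgeR adjusted p = 0.0218). NONRATT020718.2 rose from 16, 13 and 9 counts to 70, 67 and 56 (log2 fold change 2.18 ± 0.29, edgeR adjusted p = 0.0246). NONRATT021953.2 fell from 60, 35 and 40 counts to 3, 11 and 4 (log2 fold change -3.08 ± 0.40, edgeR adjusted p = 0.0218). NONRATT020373.2 showed the smallest change of the 11, from 85, 95 and 83 counts to 28, 47 and 47 (log2 fold change -1.31 ± 0.19, edgeR adjusted p = 0.0397). Its neighbour in catalogue number NONRATT020374.2 had a log2 fold change of -0.47 ± 0.20 and was not called (edgeR adjusted p = 0.9995). These 4 calls were the least stable. ENSRNOT00000090380 was not called in 8 of 15 alternatives, NONRATT021953.2 in 8 of 15, NONRATT020718.2 in 9 of 16 and NONRATT020373.2 in 12 of 16. Leaving out 1 library ended the call of NONRATT020373.2 whichever of the 6 it was. Without Normal 1 the adjusted p was 0.0921 for NONRATT021953.2, 0.112 for ENSRNOT00000090380 and 0.076 for NONRATT020718.2. The call of NONRATT021953.2 was also lost without Normal 3 (0.073) and without Model 3 (0.0685). For ENSRNOT00000090380 it was also lost without Normal 2 (0.0673), Normal 3 (0.112) and Model 2 (0.0691), and for NONRATT020718.2 without Normal 2 (0.0673), Normal 3 (0.112) and Model 2 (0.0551).

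The 11 differed in their spread within the cells given calycosin and tanshinone IIA. With counts under 3 set to 3, the highest library exceeded the lowest by at most 3.22-fold within Normal and 2.68-fold within Model for all 11, and a call favours such small spreads. Within the cells given the compounds the range was 6.16-fold to 40.8-fold for 6 of the 11, and none of these 6 was called in the fit of 9 libraries. For the other 5 it was at most 2.88-fold, and all 5 were called there. That fit takes its spread partly from these libraries, so the split is no separate evidence. Switches between replicates were also counted, by limits on counts that these ranges need not meet. A lncRNA with 3 counts or fewer in 1 library and 100 or more in another of the same group was found 48 times within Normal, 55 times within Model and 57 times within the cells given the compounds, among 8342. By the same limits 1 lncRNA, NONRATT007758.2, had every Normal library on one side and every Model library on the other. That condition involves every library and is stricter, so its count cannot be set against those within groups. These limits were chosen after the values were seen.

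The calls were spread over the 3 kinds of lncRNA identifier. NONCODE transcripts gave 9 calls of 6750 tested, assembled transcripts 1 of 1324 and Ensembl transcripts 1 of 268. Besides MSTRG.7363.2, only NONRATT000999.2 and MSTRG.16638.1 were at 0 counts in all libraries of one group with 10 or more in each of the other. NONRATT000999.2 had 13, 10 and 22 counts in Model (edgeR adjusted p = 0.182) and MSTRG.16638.1 had 27, 31 and 72 in Normal (edgeR adjusted p = 0.291), so neither passed the test. The rule that chose the 31 genes was met by 8 lncRNAs, none of them among the 11. Of these 8, NONRATT020211.2, NONRATT006490.2, NONRATT028015.2 and ENSRNOT00000079245 had 10 or more counts in Model 1 and 3 or fewer in each library given the compounds. Most of the 31 genes did so too. The proportions of the genes were not shared by all of these lncRNAs. In Normal 1, Normal 2, Normal 3 and Model 1, NONRATT020211.2 had 27, 22, 11 and 25 counts and NONRATT006490.2 had 16, 13, 12 and 10. Normal 1 did not stand out in them as it did in the genes. ENSRNOT00000079245 had the same counts as ENSRNOG00000054742, 1 of the 31 genes, in every library, so the tables are not independent there. Others did not meet these limits: MSTRG.16638.1 was at 0 counts in Model 1 as well, and NONRATT015157.2 had 95, 32 and 37 counts in the cells given the compounds.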

How the data were processed

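Total RNA of 6 libraries was compared, 3 Normal and 3 Model. Libraries were strand-specific, per the labels' protocols. The submitters' processing notes list CASAVA 1.8 and the build mRatBN7.2. Which aligner, counter, strand setting and annotation were used is not given in the sources used here, which leaves overlapping and antisense features uncertain. For genes and lncRNA transcripts the authors deposited raw counts and FPKM, per the file headers. Counts entered all tests. The deposited FPKM values served for the per-length sums.

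Separate fits of the 2 tables used edgeR 4.0.16 under R 4.3.3 (TMM, robust glmQLFit, glmQLFTest) and a single term, the group. The standard error is the size of the log2 fold change divided by the square root of F, and 95% intervals use the t quantile of the fit's total degrees of freedom. P-values were adjusted by Benjamini-Hochberg within a table. CPM use TMM-scaled totals, with factors over the 6 libraries for Normal and Model. Factors over all 9 libraries scaled the 31 genes, the libraries given the compounds and the within-group ranges of the called lncRNAs. The fit was tested on simulated data. No replicate pair agreed within sampling noise (chi-square per degree of freedom 4.92 to 15.0 for genes and 7.64 to 11.6 for lncRNAs).

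Alternatives were DESeq2 1.42.0, other scalings, no filter or 50 counts, all 9 libraries, no robust settings, a replicate block, summed loci and leaving out each library. The members, lists and the choice of 6 libraries for the fit were made with earlier results of these data known. The set of 31 genes, the switch limits, the summed FPKM and the fit without Normal 1 and Model 1 were chosen after values were seen. Its libraries were picked by the values of the 31 genes. All called lncRNAs are named. The rule for genes named the 5 smallest p in each direction, of which 2 each are shown, since identifiers without symbols say little. The reference table of 47357 genes holds 0 Ensembl identifiers, so gene lists and cell type markers were not scored.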

Additional observations from a re-analysis of the deposited data

How the results depend on the processing

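The number of genes called was 0 in edgeR with other scalings, no filter, the 50-count filter, all 9 libraries, no robust settings and the replicate block, and 0 in DESeq2. Leaving out 1 library gave 0 to 2 genes called and 1847 to 3403 genes in groups that do not overlap, and 8 to 21 lncRNAs called and 1497 to 2055 lncRNAs in groups that do not overlap, where fewer libraries per group make such separation easier. Leaving out Normal 1 and Model 1 together, libraries chosen after the data were seen, gave 35 genes and 21 lncRNAs called with 2 libraries per group. The lncRNA count was 7 with no filter, 7 with the 50-count filter, 6 with all 9 libraries and 6 without robust settings. The lncRNAs whose interval lies inside a 1.5-fold change numbered 1298 in DESeq2, and those inside a 2-fold change 2895 with the 50-count filter, where fewer were tested. The lncRNAs in groups that do not overlap numbered 1513 with no filter and 310 with the 50-count filter. The cause of the other differences was not tested. Genes fitted at least 2-fold apart with no filter were 2025 lower and 1322 higher, where genes of very few counts enter.

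Whether replicate numbers in the labels pair the libraries could not be decided from deviations within groups of so few libraries. Deviations of same-numbered Normal and Model libraries correlated across genes with r of 0.267, -0.12 and 0.0983. The first value, Normal 1 with Model 1, was the highest of all pairs between the groups. Normal 2 and Normal 3 each correlated better with a Model library of another number. With the replicate block 0 genes and 11 lncRNAs were called, 9 of them among the 11. No log2 fold change of a gene shown for its small p, or of the 11 called lncRNAs, changed sign under these alternatives. Other transcripts named in the text were not followed across the alternatives. The balance of lncRNA calls did move, from 5 higher and 6 lower to 14 and 5 without Normal 2 and to 6 and 5 with the replicate block. LncRNAs fitted at least 2-fold apart went from 128 lower and 132 higher to 183 and 138 without Model 1. The split was 202 and 153 without Model 2 and 205 and 149 without Model 3. It leaned the other way without Normal 1 (148 lower and 192 higher), Normal 2 (155 and 208) or Normal 3 (148 and 202). At these depths 3 counts equal up to 0.244 CPM for a gene and 2.68 CPM for a lncRNA in the 6 libraries, and fold changes from counts near that level are imprecise.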
